A study of Homo sapiens with 2 samples.

Results

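The secreted and membrane-bound metalloproteinases and their inhibitors were compared by RNA-Seq between the lines RC77 T/E and MDA PCa 2b. Every protein-coding row whose symbol was MMP, ADAM or ADAMTS followed by a number, or TIMP1 to TIMP4, was taken, whatever its level. This gave 65 of the 17413 protein-coding genes, namely 22 MMP, 20 ADAM, 19 ADAMTS and 4 TIMP genes. Both lines are established human prostate cancer cell lines and were left untreated. MDA PCa 2b cells were grown in a modified Ham's medium with 20% FBS, cholera toxin, mouse EGF at 10 ng/ml, phosphoethanolamine, hydrocortisone, selenite, insulin and antibiotics, and RC77 T/E cells in a serum-free keratinocyte medium with EGF and pituitary extract. The series also concerns platelets, which were not part of these 2 libraries of total RNA. Each line is a single cell line with 1 library, so the differences given here have no replicate check, and line, medium and library cannot be told apart.

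Matrix metalloproteinases (MMPs) are zinc enzymes that cut collagens, other matrix proteins and cell-surface proteins, and most are made as inactive pro-forms. ADAM proteins are membrane proteins with a disintegrin domain, and their active members release the outer parts of growth factors and receptors. ADAMTS proteins are their secreted relatives with thrombospondin repeats, and TIMPs are small secreted proteins that block MMPs and, in part, ADAM and ADAMTS enzymes. In prostate epithelium and its tumours these families are studied for basement membrane breakdown, invasion and growth factor release.

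Levels are in TPM, a number of transcripts scaled to a fixed total, a unit per transcript length that lets genes be set side by side within a library. Expressed means a level of 1 TPM or more. The log2 ratio was taken as log2[(RC77 T/E + 1)/(MDA PCa 2b + 1)], so positive values are higher in RC77 T/E, and a 2-fold difference means a log2 ratio of at least 1 in size. The added 1 TPM shrinks the ratio of low genes. No read counts were used here, so depth is unknown and no counting interval or detection limit can be given. Values under 1 TPM are therefore given as listed, and plain folds are given only where the lower value was at least 0.2 TPM. For 3 members, MMP15, MMP20 and TIMP2, the decimal mark lost in the table has 2 possible positions, and both values are given, the lower one being used for counts and sums.

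The lines were first set against markers of cell type. The 4 epithelial markers were at 1 TPM or more in both lines, with KRT18 at 320.5 TPM in MDA PCa 2b against 325 TPM in RC77 T/E. Luminal KLK3 (PSA) reached 5323 TPM in MDA PCa 2b and was listed at 0 in RC77 T/E, whereas basal KRT5 was at 0.00435 and 4027 TPM. All 4 luminal markers reached 1 TPM in MDA PCa 2b and 1 of 4 in RC77 T/E, and 2 and 4 of the 4 basal markers did. Of the 7 stromal markers, none reached 1 TPM in MDA PCa 2b and COL1A1 alone did in RC77 T/E (8.24 TPM), with COL3A1 and LUM listed at 0, and the summed level of the list was 2.82 and 9.23 TPM. Of the 4 blood markers, none reached 1 TPM in MDA PCa 2b, and CD68 (37.9 TPM) and CD14 (4.92 TPM) did in RC77 T/E, where PTPRC, the pan-leukocyte gene, was listed at 0, the summed levels being 1.25 and 42.9 TPM. All 3 endothelial markers were under 1 TPM in both lines. The part of COL1A1-, CD68- or CD14-expressing cells in the values below was not tested, and in bulk RNA fewer cells of a type and less RNA per cell cannot be told apart.

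Most metalloproteinase genes were low in both lines. Of the 65 members, MDA PCa 2b expressed 14 (21.5%), beside 57.9% of all protein-coding genes, and RC77 T/E expressed 21 (32.3%), beside 61.7%. Only 8 members were expressed in both lines, where 53.9% of all protein-coding genes were. A further 13 members (20.0%) reached 1 TPM in RC77 T/E only, beside 7.76% of all genes, and 6 (9.23%) in MDA PCa 2b only, beside 4.0%. The other 38 members were under 1 TPM in both lines, and 6 of them were listed at 0 in both. At least a 2-fold higher value was seen in RC77 T/E for 16 members (24.6%), beside 13% of all protein-coding genes, and in MDA PCa 2b for 6 members (9.23%), beside 13.1%. The median log2 ratio of all members was 0.06, beside 0.0 over all protein-coding genes. The 38 members under 1 TPM in both lines weigh on this median, because the added 1 TPM shrinks their ratios. The higher value lay in RC77 T/E for 39 members and in MDA PCa 2b for 20, beside 7207 and 8116 of all protein-coding genes. A mean of 1 TPM or more over the lines was reached by 24 members, which had to be high in at least 1 line. Of the 11013 protein-coding genes with such a mean, 19.1% differed 2-fold or more toward RC77 T/E and 19.9% toward MDA PCa 2b. Among the 24 members, 6 MMP, 4 ADAM, 2 ADAMTS and 3 TIMP genes differed so toward RC77 T/E. Toward MDA PCa 2b, 4 MMP genes and 1 ADAM gene did.

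**Figure D1:**
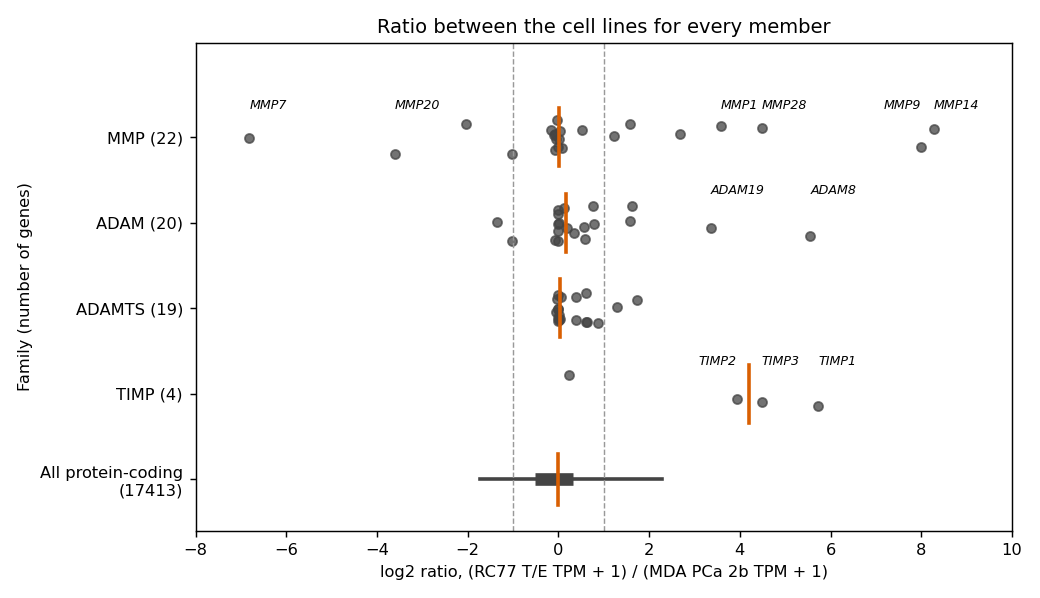
Log2 ratio of every member by family (points, spread vertically only for legibility; family size in brackets; orange line, median; dashed lines, 2-fold either way), with all 17413 protein-coding genes below (thin bar, without the 5% at each end, from -1.73 to 2.29; thick bar, quartiles). The MMP points run from -6.82 (MMP7) to 8.27 (MMP14) around a median of 0.007, and 3 of the 4 TIMP points lie at 3.93 or above.

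At the 1 TPM threshold, the MMP family differed in which members were expressed more than in how many. MDA PCa 2b expressed 5 (22.7%) of the 22 genes, beside 57.9% of all protein-coding genes, and RC77 T/E 9 (40.9%), beside 61.7%. MMP15 alone was expressed by both, where 53.9% of all protein-coding genes were. This overlap depended on the threshold. At 0.5 TPM the lines expressed 7 and 10 MMP genes, and MMP11, MMP25 and MMP28 were then shared as well. At least 2-fold differences were counted for 7 members toward RC77 T/E (31.8%, beside 13% of all protein-coding genes) and 4 toward MDA PCa 2b (18.2%, beside 13.1%). After centring or upper-quartile scaling the latter count was 3, without MMP15. Their median ratio was 0.007 on the log2 scale, since 11 genes had the higher value in RC77 T/E and 10 had it in MDA PCa 2b. The summed level was 159 TPM in MDA PCa 2b (297 TPM with MMP15 and MMP20 at their higher position) and 701 TPM in RC77 T/E (715 TPM). A single gene made up most of each sum at the lower positions, MMP7 with 85.2% in MDA PCa 2b (45.6% at the higher position) and MMP14 with 53.0% in RC77 T/E (52.0%).

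The 9 MMP genes clustered on chromosome 11 lie on the minus strand within 435 kb (GRCh38), and they split by line. MDA PCa 2b expressed MMP7, MMP20 and MMP10. RC77 T/E expressed MMP1 alone, and the other 5 genes, MMP3, MMP8, MMP12, MMP13 and MMP27, were under 1 TPM in both lines. MMP7 (chr11:102520508-102530750) encodes matrilysin, an epithelial enzyme that cuts matrix proteins and activates other pro-enzymes. It was at 136 TPM in MDA PCa 2b against 0.211 TPM in RC77 T/E, a log2 ratio of -6.82 and a 642-fold higher level in MDA PCa 2b. Of all protein-coding genes, 19 had a lower ratio. This rank and those of MMP9 and MMP14 below were taken with undetermined decimal marks at their lowest position. They were not counted at other positions and can change there. MMP20 (chr11:102576832-102625332), known as the enamelysin of developing teeth, was at 11.1 or 111 TPM in MDA PCa 2b and listed at 0 in RC77 T/E, with a log2 ratio of -3.60 or -6.81. MMP10 (chr11:102770502-102780628), stromelysin-2, was at 3.97 TPM in MDA PCa 2b against 0.213 TPM in RC77 T/E, 18.6-fold higher in MDA PCa 2b with a log2 ratio of -2.03. The next gene, MMP1 (chr11:102789401-102798160), interstitial collagenase, differed the other way, with 0.287 TPM in MDA PCa 2b against 14.4 TPM in RC77 T/E, 50.2-fold higher in RC77 T/E with a log2 ratio of 3.58. MMP10 and MMP1 are thus direct neighbours with opposite differences. MMP1, MMP10 and MMP3 overlap the pseudogene WTAPP1 on the other strand. The library kit keeps strand, but whether strand was used in quantification is not given in the sources used here.

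The stretches of 150 bases before the annotated start of 4 genes of this cluster are shown because 3 of them belong to the genes expressed in MDA PCa 2b and the fourth, MMP27, lies among them and was low in both lines. They come from RefSeq (GRCh38.p14), are written 5′ to 3′ on the minus strand, and have 2 motifs in capitals, the AP-1 element TGANTCA and the TATA box TATAAA. They span chr11:102530748-102530897 (MMP7), chr11:102625333-102625482 (MMP20), chr11:102780629-102780778 (MMP10) and chr11:102705770-102705919 (MMP27).
MMP7: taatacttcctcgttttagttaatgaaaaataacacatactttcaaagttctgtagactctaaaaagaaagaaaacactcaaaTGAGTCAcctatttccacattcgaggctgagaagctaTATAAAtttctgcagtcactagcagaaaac
MMP20: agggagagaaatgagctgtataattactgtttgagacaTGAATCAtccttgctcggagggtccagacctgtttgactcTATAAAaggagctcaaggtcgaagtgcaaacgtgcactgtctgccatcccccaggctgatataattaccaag
MMP10: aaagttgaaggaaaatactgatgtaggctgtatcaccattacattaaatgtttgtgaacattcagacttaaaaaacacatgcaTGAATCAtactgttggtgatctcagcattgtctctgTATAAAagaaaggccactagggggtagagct
MMP27: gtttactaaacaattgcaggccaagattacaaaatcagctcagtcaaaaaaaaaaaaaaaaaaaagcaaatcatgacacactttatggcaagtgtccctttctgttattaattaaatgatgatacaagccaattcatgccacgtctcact
Both motifs were searched on both strands in windows from 250 bases before to 50 bases after the start. Counted from the start, the AP-1 element began at -67 in MMP7, -112 in MMP20 and -67 in MMP10, and the TATA box at -30, -72 and -31. The MMP27 stretch holds neither. MMP8, which also lies among these genes and was low in both lines, is not shown. Its window holds a TATA box at -110. RefSeq windows were matched for 37 of the 65 members, 11 of them MMP genes. No window was matched for MMP1, MMP3, MMP12 and MMP13 of the cluster. MMP1, the only cluster gene expressed in RC77 T/E, was thus not searched. The motifs could therefore not be compared between cluster genes expressed in each line. The AP-1 element was found for 4 of these 37 members (MMP7, MMP10, MMP20 and ADAMTS12) and in 7.72% of all 34943 windows. The TATA box was found for 8 of the 37 (6 of the 11 MMP genes) and in 11.6% of all windows. Members were counted once each, though ADAMTS10 had more than 1 window, whereas the shares over all count every window. ADAMTS12, which holds the AP-1 element too, was under 1 TPM in both lines. Of the 8 members with the TATA box, only MMP7, MMP10 and MMP20 were expressed in a line. MMP8, MMP21, MMP26, ADAM21 and ADAMTS10 hold it and were under 1 TPM in both lines. MMP11, MMP14 and MMP15 were expressed in at least 1 line, and their windows hold neither motif. The letters thus did not go with the level in these members. A match of letters is a description and not evidence of binding.

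**Figure D2:**
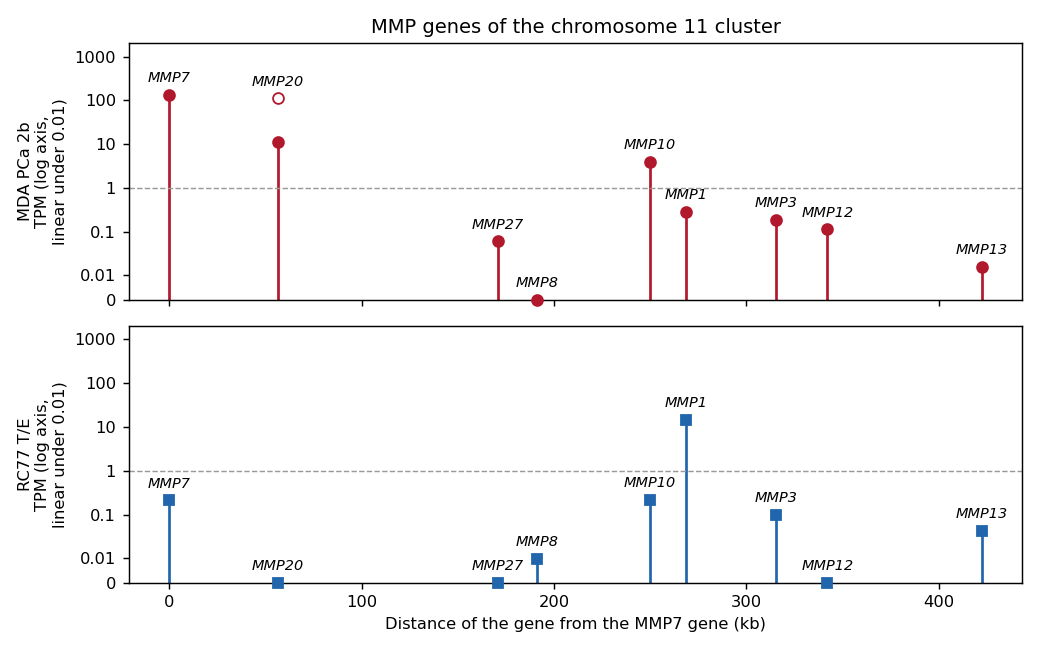
TPM of the 9 MMP genes of the chromosome 11 cluster in MDA PCa 2b (upper panel) and RC77 T/E (lower panel) on log axes that are linear under 0.01, against the distance of each gene from MMP7 in kb; the open circle is the higher possible value of MMP20 and the dashed line is 1 TPM. MMP7, MMP20 and MMP10 exceed 1 TPM in the upper panel, and MMP1 alone does in the lower panel.

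Of the 3 collagenases, MMP1 alone differed 2-fold or more toward RC77 T/E, and MMP8 and MMP13 were at most 0.0420 TPM in either line. Both gelatinases, MMP2 and MMP9, differed so too. The gelatinases cut denatured collagen and the type IV collagen of basement membranes. MMP9 (chr20:46008908-46016561), gelatinase B, whose protein activity the study discusses, was at 0.0510 TPM in MDA PCa 2b against 266 TPM in RC77 T/E, a log2 ratio of 7.99, and 22 protein-coding genes had a larger ratio. MMP2 (chr16:55389700-55506691), gelatinase A, was at 0.227 and 2.67 TPM, 11.8-fold higher in RC77 T/E with a log2 ratio of 1.58. In RC77 T/E the MMP9 level was thus far above that of MMP2. MMP9 overlaps the antisense RNA SLC12A5-AS1, and MMP2 overlaps MMP2-AS1, both on the other strand.

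The membrane-type MMPs stay on the cell surface, and 2 of the 6, MMP14 and MMP17, differed 2-fold or more toward RC77 T/E. MMP14 (chr14:22836560-22849041), the MT1-MMP that cuts collagen at the cell surface and activates pro-MMP2, was at 0.204 TPM in MDA PCa 2b against 372 TPM in RC77 T/E. This was 1824-fold higher in RC77 T/E with a log2 ratio of 8.27, and 17 protein-coding genes had a larger one. The order of MMP14 and MMP9 by ratio depended on the added constant, since with 0.1 TPM in place of 1 TPM the log2 ratios were 10.26 and 10.78. No other gene overlaps MMP14 in GENCODE. MMP17 (MT4-MMP, anchored by a lipid) was at 0.00370 and 5.42 TPM, giving a log2 ratio of 2.68. MMP15 (MT2-MMP) went the other way, with 4.25 TPM in MDA PCa 2b against 1.59 in RC77 T/E, or 42.5 and 15.9 TPM, 2.67-fold higher in MDA PCa 2b with a log2 ratio of -1.02 or -1.36. The first of these was -0.86 after centring and -0.92 after upper-quartile scaling, short of 2-fold on the log2 scale. MMP25 (MT6-MMP), which overlaps its antisense RNA MMP25-AS1, was at 0.943 and 1.05 TPM, giving a log2 ratio of 0.08 on either side of the threshold. MMP16 and MMP24 were under 1 TPM in both lines.

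Among the remaining MMPs, MMP28 (epilysin, an enzyme of skin and other epithelia) was at 0.588 TPM in MDA PCa 2b against 34.5 TPM in RC77 T/E, 58.6-fold higher in RC77 T/E with a log2 ratio of 4.48. The gene overlaps TAF15 and C17orf50 on the other strand. MMP19, found in the basal layer of skin among other sites, was at 0.0229 and 1.41 TPM, giving a log2 ratio of 1.23. MMP11 (stromelysin-3, typical of tumour stroma) was at 1.06 and 0.956 TPM and did not separate the lines, and it overlaps CHCHD10. The 9 members under 1 TPM in both lines, MMP3, MMP8, MMP12, MMP13, MMP16, MMP21, MMP24, MMP26 and MMP27, reached at most 0.309 TPM in MDA PCa 2b against 0.450 TPM in RC77 T/E, and MMP26 was listed at 0 in both.

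**Figure D3:**
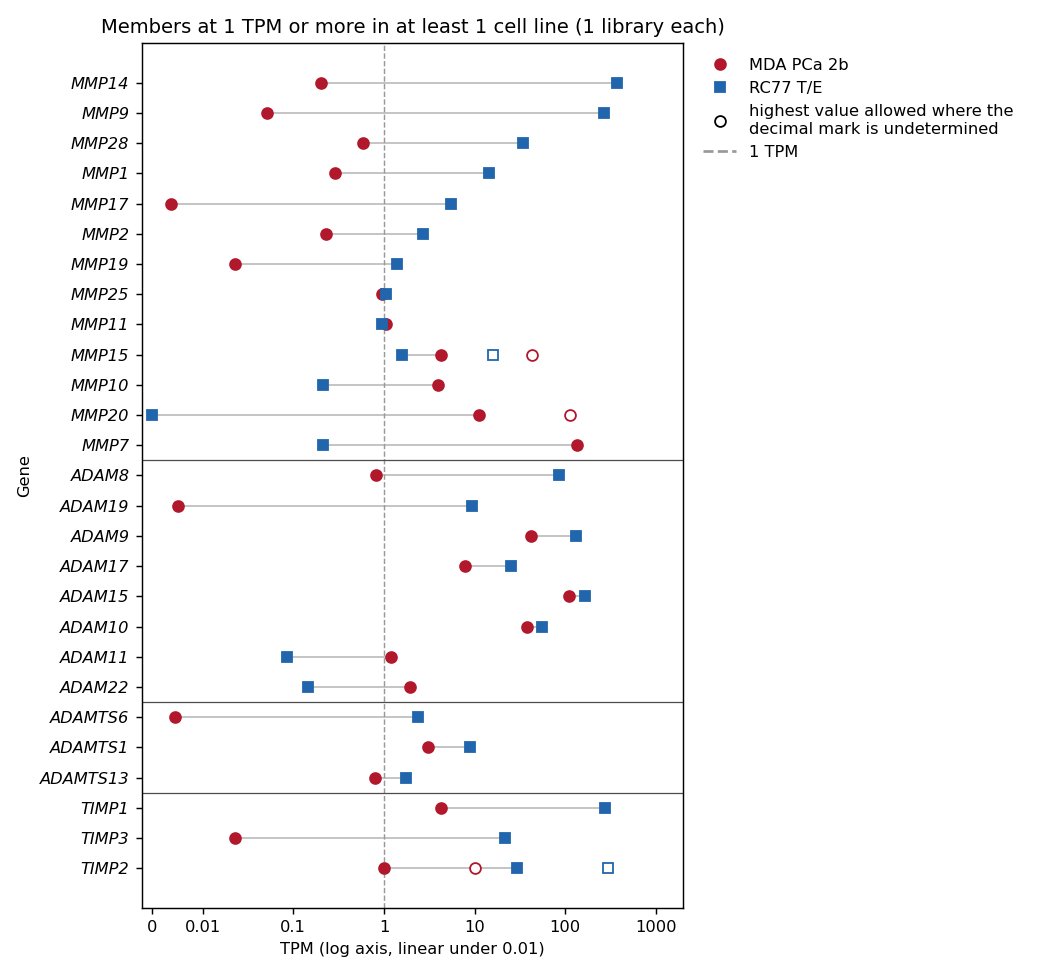
TPM of the 27 members at 1 TPM or more in at least 1 line, by family and sorted by ratio, for MDA PCa 2b (red circles) and RC77 T/E (blue squares), 1 library each, on a log axis that is linear under 0.01; open symbols are the higher possible values of MMP15, MMP20 and TIMP2. MMP14 and MMP9 in RC77 T/E (372 and 266 TPM) and MMP7 in MDA PCa 2b (136 TPM) are the highest MMP values, and ADAM15, ADAM9, ADAM10 and ADAM17 are high in both lines.

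All 4 TIMP genes were higher in RC77 T/E, though TIMP4 was under 1 TPM in both lines. Toward RC77 T/E, 3 of the 4 differed by at least 2-fold, beside 13% of all protein-coding genes. Toward MDA PCa 2b none did, beside 13.1%. MDA PCa 2b expressed 2 of the 4, beside 57.9% of all protein-coding genes, and RC77 T/E 3, beside 61.7%. The median log2 ratio of the 4 genes was 4.21. The summed level was 5.27 TPM in MDA PCa 2b (14.3 TPM at the higher position of TIMP2) and 326 TPM in RC77 T/E (591 TPM), a 61.9-fold (41.4-fold) higher sum in RC77 T/E. The sum of the MMP genes was 4.41-fold (2.41-fold) higher in the same line. TIMP1 (chrX:47582408-47586789), a soluble inhibitor of most MMPs that also binds pro-MMP9, was at 4.22 TPM in MDA PCa 2b against 274 TPM in RC77 T/E, 65.0-fold higher with a log2 ratio of 5.72. TIMP2 (chr17:78852977-78925387), which joins MMP14 in the activation of pro-MMP2, was at 1.00 and 29.5 TPM or at 10.0 and 295 TPM, 29.5-fold higher in RC77 T/E at both positions. TIMP3 (chr22:32801705-32863041), the inhibitor that binds the matrix and also blocks ADAM17 and aggrecanases, was at 0.0225 and 21.9 TPM, giving a log2 ratio of 4.48. TIMP4 was low in both, at 0.0261 and 0.200 TPM. The 3 inhibitors at 1 TPM or more in RC77 T/E were thus higher in the line in which MMP14, MMP9 and MMP2 were higher. TIMP1, TIMP3 and TIMP4 each overlap a synapsin gene on the other strand (SYN1, SYN3 and SYN2), and TIMP2 overlaps CEP295NL on its own strand, so reads in the shared bases could be divided in either way.

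The 150 bases before the TIMP3 start (chr22:32801555-32801704, plus strand, RefSeq, GRCh38.p14) are shown beside those of the MMP genes because TIMP3 differed the other way from MMP7, and they hold neither the AP-1 element nor the TATA box.
TIMP3: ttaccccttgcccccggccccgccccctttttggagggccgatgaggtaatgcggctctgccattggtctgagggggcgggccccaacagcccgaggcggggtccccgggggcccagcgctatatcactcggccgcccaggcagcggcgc
The absence of these letters from the window says nothing about which factors act on TIMP3.

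Of the 20 ADAM genes, MDA PCa 2b expressed 6 (30.0%, beside 57.9% of all protein-coding genes) and RC77 T/E 6 (30.0%, beside 61.7%). Of these, 4 were expressed in both lines, where 53.9% of all protein-coding genes were. At least 2-fold differences were counted for 4 members toward RC77 T/E (20.0%, beside 13% of all protein-coding genes) and 2 toward MDA PCa 2b (10.0%, beside 13.1%), and the median log2 ratio was 0.16. The summed level was 202 TPM in MDA PCa 2b against 474 TPM in RC77 T/E. The 4 shared members were the widely expressed ADAM9, ADAM10, ADAM15 and ADAM17.

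ADAM10 and ADAM17 (TACE) are the main sheddases of epithelial cells, with Notch receptors, cadherins and EGF receptor ligands among their substrates. ADAM10 (chr15:58588809-58749791) was at 37.3 TPM in MDA PCa 2b against 55.7 TPM in RC77 T/E, a log2 ratio of 0.57. ADAM17 (chr2:9488486-9556732) was at 7.79 and 25.1 TPM, 3.22-fold higher in RC77 T/E with a log2 ratio of 1.57. ADAM10 was thus above ADAM17 in both lines, and of these genes ADAM17 alone passed the 2-fold mark. ADAM17 overlaps IAH1 on the other strand. ADAM15, which carries an integrin-binding disintegrin loop, was the highest ADAM in both lines, with 110.4 TPM in MDA PCa 2b against 166 TPM in RC77 T/E (log2 ratio 0.58), or 54.7% and 35.0% of the family's sum. It overlaps DCST1 on the same strand. ADAM9 (meltrin gamma) was at 41.8 and 131 TPM, 3.12-fold higher in RC77 T/E with a log2 ratio of 1.62.

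Expressed in RC77 T/E alone were ADAM8 and ADAM19. ADAM8 (chr10:133262420-133276868), first described on leukocytes and also made by tumour cells, was at 0.824 TPM in MDA PCa 2b against 84.7 TPM in RC77 T/E, 103-fold higher with a log2 ratio of 5.55. The blood markers PTPRC and LYZ were listed at 0 in RC77 T/E, while CD68 and CD14 were not low there, as given above. ADAM19 (meltrin beta, which releases neuregulin) was at 0.00505 and 9.27 TPM, giving a log2 ratio of 3.35, and overlaps the protein-coding AC008676.3 on its own strand and CYFIP2 and NIPAL4 on the other. Expressed in MDA PCa 2b alone were ADAM11 and ADAM22, both without protease activity and best known from the nervous system. ADAM11 was at 1.2 TPM in MDA PCa 2b against 0.0845 TPM in RC77 T/E (log2 ratio -1.02), and ADAM22, a receptor for LGI1, at 1.95 and 0.146 TPM (log2 ratio -1.36). Both lay close to the threshold for expression, and ADAM11 was short of 2-fold after centring (-0.87) and upper-quartile scaling (-0.98).

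The other 12 ADAM genes were under 1 TPM in both lines, with at most 0.195 TPM in MDA PCa 2b against 0.923 TPM in RC77 T/E (ADAM21). They comprise ADAM12, ADAM23, ADAM28, ADAM32 and ADAM33 and the mostly testicular or epididymal ADAM2, ADAM7, ADAM18, ADAM20, ADAM21, ADAM29 and ADAM30. ADAM2, ADAM29 and ADAM30 were listed at 0 in both lines. On chromosome 8, ADAM9 is followed by ADAM32, ADAM18 and ADAM2, and ADAM9 was the only gene of this row above 1 TPM.

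The ADAMTS family was the lowest of the proteinase families, with summed levels of 4.34 TPM in MDA PCa 2b against 16.1 TPM in RC77 T/E. Of its 19 genes, MDA PCa 2b expressed 1 (5.26%, beside 57.9% of all protein-coding genes) and RC77 T/E 3 (15.8%, beside 61.7%). Toward RC77 T/E, 2 (10.5%, beside 13% of all protein-coding genes) differed 2-fold or more. Toward MDA PCa 2b none did, beside 13.1%, and the median log2 ratio was 0.03. ADAMTS1 (chr21:26835755-26845409), a proteoglycanase that cuts versican and aggrecan, was at 3.05 TPM in MDA PCa 2b against 8.89 TPM in RC77 T/E, 2.91-fold higher with a log2 ratio of 1.29. It made up 70.3% and 55.0% of the family's sum. ADAMTS6 was at 0.00457 and 2.36 TPM, giving a log2 ratio of 1.74. ADAMTS13, which cuts von Willebrand factor and so limits platelet adhesion, was at 0.805 and 1.76 TPM, giving a log2 ratio of 0.61 that did not reach 2-fold, and it overlaps REXO4 on the other strand.

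The other 16 ADAMTS genes were under 1 TPM in both lines, 9 of them with the higher value in RC77 T/E and 5 with it in MDA PCa 2b, and with ADAMTS10 and ADAMTS18 listed at 0 in both. None of the procollagen N-proteinases ADAMTS2, ADAMTS3 and ADAMTS14, which trim the ends of fibrillar procollagens, reached 1 TPM, with summed levels of 0.0286 TPM in MDA PCa 2b against 0.361 TPM in RC77 T/E. The proteoglycanases other than ADAMTS1 (ADAMTS4, ADAMTS5, ADAMTS8, ADAMTS9, ADAMTS15 and ADAMTS20) were likewise under 1 TPM. ADAMTS7 and ADAMTS12, which cut cartilage oligomeric matrix protein, had a summed level of 0.213 TPM in MDA PCa 2b against 1.67 TPM in RC77 T/E, with no single value above 0.849 TPM.

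Genes that induce, activate, guide, restrain or clear these enzymes were taken with ADAMTS relatives that lack a protease domain, as a list of 23. MDA PCa 2b expressed 13 (56.5%, beside 57.9% of all protein-coding genes) and RC77 T/E 17 (73.9%, beside 61.7%). At least 2-fold differences were counted for 7 toward RC77 T/E (30.4%, beside 13% of all protein-coding genes) and 4 toward MDA PCa 2b (17.4%, beside 13.1%), and the median log2 ratio was 0.49. Of the 7 toward RC77 T/E, ADAMTSL4, ADAMTSL5, PAPLN and THSD4 were such relatives, and only RHBDF2, TSPAN5 and LRP1 were not. None of the 4 toward MDA PCa 2b (FURIN, PCSK5, TSPAN15 and TSPAN33) was such a relative. The share toward RC77 T/E therefore rests largely on the relatives. The proprotein convertases cleave pro-forms such as those of MMP14 and the ADAMs. FURIN was 2.62-fold higher in MDA PCa 2b (8.16 and 3.11 TPM at the lowest of several possible positions, 816 and 311 TPM at the highest), and PCSK5 was at 3.70 TPM in MDA PCa 2b against 0.246 TPM in RC77 T/E, 15-fold higher in MDA PCa 2b. PCSK7 was at 20.0 and 15.4 TPM. RC77 T/E, the line with more MMP14, thus had the lower value of FURIN, PCSK5 and PCSK7, though PCSK7 was under 2-fold apart.

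Of the 9 listed partners of the sheddases, 4 differed at least 2-fold, 2 in each direction. The shares over all protein-coding genes were 13% toward RC77 T/E and 13.1% toward MDA PCa 2b. RHBDF2 (iRhom2), which carries ADAM17 to the cell surface, was at 1.12 TPM in MDA PCa 2b against 23.8 TPM in RC77 T/E, or 11.2 and 238 TPM, 21.3-fold higher in RC77 T/E, while the related RHBDF1 was at 22.5 and 31.8 TPM and FRMD8, which binds iRhom proteins, was under 2-fold apart. The TSPANC8 tetraspanins each bind ADAM10 and steer it to different substrates. TSPAN5 was 15.7-fold higher in RC77 T/E (2.46 and 38.8 TPM, or 24.6 and 388 TPM). TSPAN15 was 12-fold higher in MDA PCa 2b (12.2 and 1.02 TPM, or 122 and 10.2 TPM), and TSPAN33 was at 8.67 TPM in MDA PCa 2b against 0.233 TPM in RC77 T/E, 37.1-fold higher in MDA PCa 2b. TSPAN14 and TSPAN17 were above 10 TPM in both lines and less than 2-fold apart on the log2 scale, as was TSPAN10 at 0.243 and 1.25 TPM. Of these 6 tetraspanins, TSPAN5, TSPAN14, TSPAN15 and TSPAN17 were expressed in both lines.

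BSG (basigin, EMMPRIN), an inducer of MMPs, was at 486 TPM in MDA PCa 2b against 736 TPM in RC77 T/E, above every member in both lines. RECK, a membrane-anchored MMP inhibitor, was at 1.27 and 1.36 TPM, and A2M, the plasma inhibitor of proteinases, was under 0.1 TPM in both. LRP1, the receptor that clears MMP and TIMP complexes, was at 0.714 TPM in MDA PCa 2b against 17.6 TPM in RC77 T/E, 24.6-fold higher in RC77 T/E. Unlike the TIMPs, RECK did not separate the lines. Of the ADAMTS-related proteins without a protease domain, ADAMTSL4 (0.0655 and 17.6 TPM), THSD4 (0.496 and 16.2 TPM), PAPLN (0.0969 and 7.71 TPM) and ADAMTSL5 (0.527 and 3.97 TPM) were expressed in RC77 T/E only, with log2 ratios of 4.13, 3.52, 2.99 and 1.70. ADAMTSL1, ADAMTSL2 and ADAMTSL3 were under 0.1 TPM in both lines. In RC77 T/E each of these 4 relatives was above every ADAMTS enzyme other than ADAMTS1.

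**Figure D4:**
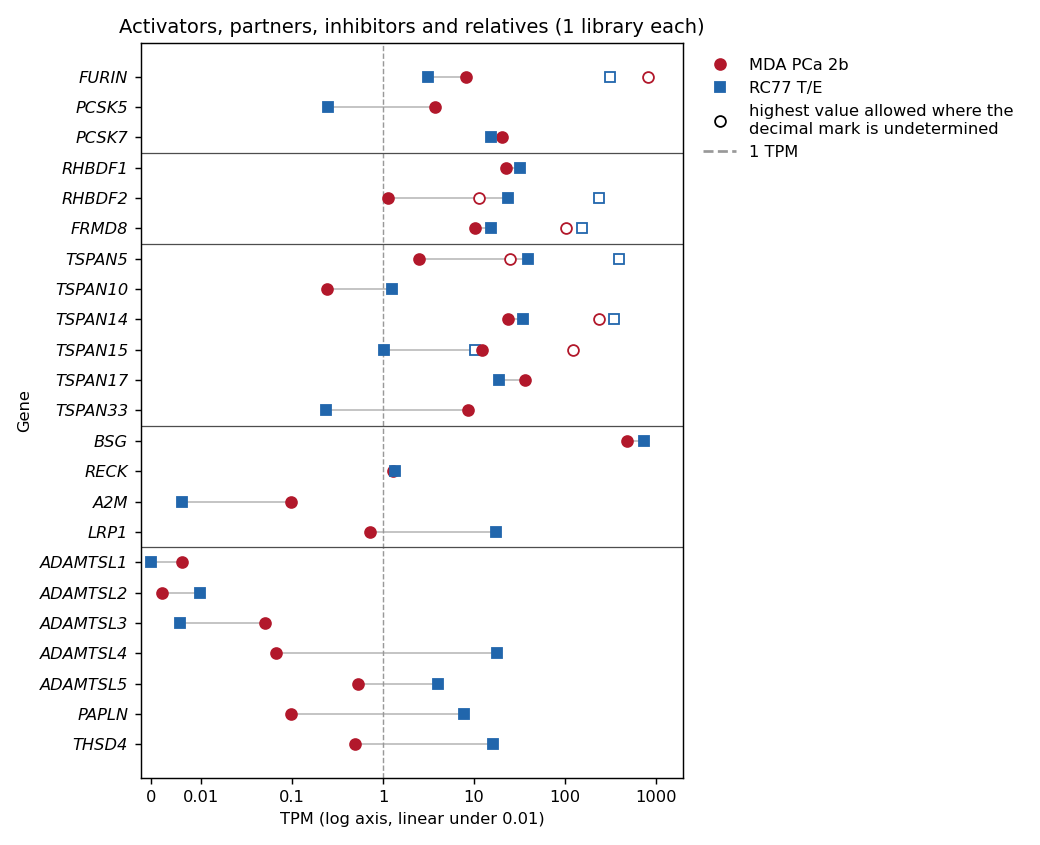
TPM of the 23 listed activators, partners, inhibitors and relatives in MDA PCa 2b (red circles) and RC77 T/E (blue squares), 1 library each, on a log axis that is linear under 0.01; horizontal lines part the groups, and open symbols are the highest possible values where the decimal mark is undetermined. TSPAN33 and TSPAN15 lie to the right in MDA PCa 2b and TSPAN5, RHBDF2 and LRP1 in RC77 T/E.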

How the data were processed

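RNA-Seq of total RNA was analysed for 1 library of MDA PCa 2b and 1 of RC77 T/E. The submitters' processing notes name CASAVA, FastQC 0.11.9, Trimmomatic 0.38, Salmon 1.2.0 and GRCh38. The deposited values are TPM per locus, normalized by the authors for transcript length and library total, listed with the authors' mean and standard error. Many deposited values had lost their decimal mark, which the design had not foreseen. Every position was tried, and those that gave the deposited mean and standard error were kept: 16284 of the 22791 rows had 1 position and 6507 had several, where the supplementary table of the study was used if it listed the gene and otherwise the lowest position. In 683 such rows that the supplementary table lists, the lowest position was the listed one in 77.2%. Among the members, the mark was fixed by the table for 57, by the supplementary table for 5 (ADAM9, ADAM10, ADAM15, ADAM17 and ADAMTS1) and was undetermined for 3. The mean and standard error were used for nothing else. The restoration was tested on simulated data.

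Of repeated rows for the same locus (87) a single copy was kept, and values were summed per symbol. No test was run and no p-value is given. The named members were those at 1 TPM or more in at least 1 line (27) and MMP9. From the regulators, the rule named those at 1 TPM or more and at least 2-fold apart, and the others named were added after their values were seen. Members and lists were chosen with earlier results of these data known. Positions were those of the deposited table, strands and overlaps came from GENCODE 29 (GRCh38), where all 65 members matched and 18 had the same bounds, and promoters came from RefSeq (GRCh38.p14). Alternatives were thresholds of 0.5 and 5 TPM, a pseudocount of 0.1 TPM, centring on the median of expressed genes, scaling to the upper quartile, the highest decimal position, the largest locus and a filter that kept genes whose mean reached 1 TPM. MMP23B, PCSK6 and a planned division of ADAM genes by the zinc-binding motif of their proteins were not analysed here. Python 3.11.15, numpy 2.4.6, pandas 2.3.3 and matplotlib 3.10.9 were used.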

Additional observations from a re-analysis of the deposited data

How the results depend on the processing

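Among the named members and the medians of the families, the sign under the alternatives run turned for MMP11 alone, from -0.07 to 0.08 after centring. At a threshold of 5 TPM, MDA PCa 2b expressed 2 MMP, 0 ADAMTS and 0 TIMP genes, and RC77 T/E expressed 5 MMP genes and 1 ADAMTS gene. At 0.5 TPM, MDA PCa 2b expressed 7 MMP and 2 ADAMTS genes, and RC77 T/E 10 and 6. With a pseudocount of 0.1 TPM, 8 ADAM and 8 ADAMTS genes differed 2-fold or more toward RC77 T/E, against 4 and 2, and the TIMP median log2 ratio was 5.37. The ADAM genes at least 2-fold higher in MDA PCa 2b numbered 1 in place of 2 after centring on the median of expressed genes (log2 ratio -0.15), after scaling to the upper quartile and with genes kept whose mean reached 1 TPM, and the MMP genes 3 in place of 4 after centring or scaling, without MMP15. Over genes with such a mean alone, which had to be high in a line, the median log2 ratios were 1.58 for MMP, 1.57 for ADAM and 1.29 for ADAMTS genes, and 19.9% of all protein-coding genes were at least 2-fold higher in MDA PCa 2b. Of the 27 named members, 17 moved by more than 1.5-fold with the smaller pseudocount, MMP20 and TIMP2 with the highest decimal position, and none with centring, scaling or the largest locus. The cause of these changes lies in how each alternative is built (fewer genes, another threshold or another added constant). No paired analysis was possible because there is 1 library per line, and depth is unknown.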
